A study of Mus musculus with 12 samples.

Results

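Cholesterol is built in the liver from acetyl-CoA, taken up with lipoproteins, stored as esters and exported to bile and to high-density lipoprotein, and 28 genes of these processes were followed here in fatty livers of ob/ob mice with and without ethionine. The genes were a fixed list of names, 18 enzymes of the synthesis pathway and 10 genes of regulation, uptake, esterification and export, named without a threshold on any measured value. Earlier results of these data were known when the list was chosen. All 28 were found among the 56205 genes of the count table, and all 28 were among the 13416 genes with enough counts to be tested.

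RNA was extracted from whole liver of 12 mice, and poly(A) RNA was sequenced with 1 library per mouse. Both groups were ob/ob mice (B6.Cg-Lep ob/J), which lack functional leptin and become obese, were described as male, and were 8 to 10 weeks old when treatment began. The 6 FLO mice received standard chow, and the 6 fibrotic mice received the same chow and DL ethionine, an ethyl analogue of methionine. One label gives ethionine as 0.165% in the drinking water for 2 weeks and another as an injection of 0.15%. The study's methods give 0.15% in the drinking water for 1 week, so the dose and the duration are uncertain. All mice carried the leptin mutation, and a group of lean mice was not analysed here. Group names are those of the labels, and for ob/ob mice given ethionine the study reported no difference in the collagen gene Col1a1. In bulk RNA, fewer cells of a type and less RNA per cell cannot be told apart.

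Cholesterol synthesis runs from acetyl-CoA through mevalonate and isoprenoid units to squalene, which is closed into lanosterol and then trimmed and rearranged to cholesterol. When membrane sterol is low, the transcription factor SREBP2 is carried by SCAP from the endoplasmic reticulum to the Golgi, is cut there and switches on the enzymes of synthesis, whereas INSIG proteins hold the complex back when sterol is high. When sterol is in excess, the liver X receptors, which sense oxysterols, switch on the exporters ABCA1 and ABCG5/ABCG8.

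Promoter sequence is shown for 5 synthesis genes, because enzymes of a single pathway moved in opposite directions, and for the divergent Abcg5 and Abcg8 pair. Of the 28 genes, 22 had a window in the RefSeq promoter table (GRCm38.p6) that is used here, spanning 250 bases before to 50 bases after the annotated start. Both strands were searched for TCACNCCAC, the core of the classical sterol response element, and for CCAAT, the site of NF-Y, a factor that works with SREBP. Capitals mark the matches, with CCAAT on the other strand read as ATTGG. Hmgcs1 at chr13:119690101-119690400 on the plus strand is the synthesis gene whose window held the sterol core. Tm7sf2 at chr19:6067801-6068100 and Ebp at chrX:8193463-8193762, both on the minus strand, were lower in fibrotic liver. Msmo1 at chr8:64733529-64733828 and Hsd17b7 at chr1:169969156-169969455, both on the minus strand, were higher. The window of Abcg8 at chr17:84682871-84683170 on the plus strand also covers the start of Abcg5, which is read in the other direction.
Hmgcs1: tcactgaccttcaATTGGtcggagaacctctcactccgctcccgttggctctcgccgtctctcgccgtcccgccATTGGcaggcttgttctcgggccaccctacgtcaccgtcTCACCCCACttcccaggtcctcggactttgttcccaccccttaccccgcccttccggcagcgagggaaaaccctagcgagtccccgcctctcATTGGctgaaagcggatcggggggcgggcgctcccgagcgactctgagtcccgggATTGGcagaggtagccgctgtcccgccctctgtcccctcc
Tm7sf2: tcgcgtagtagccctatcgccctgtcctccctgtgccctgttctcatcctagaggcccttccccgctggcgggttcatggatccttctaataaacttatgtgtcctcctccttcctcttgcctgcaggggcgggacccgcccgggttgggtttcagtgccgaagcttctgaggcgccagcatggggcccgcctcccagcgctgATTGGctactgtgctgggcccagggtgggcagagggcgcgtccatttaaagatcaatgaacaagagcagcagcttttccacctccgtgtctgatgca
Ebp: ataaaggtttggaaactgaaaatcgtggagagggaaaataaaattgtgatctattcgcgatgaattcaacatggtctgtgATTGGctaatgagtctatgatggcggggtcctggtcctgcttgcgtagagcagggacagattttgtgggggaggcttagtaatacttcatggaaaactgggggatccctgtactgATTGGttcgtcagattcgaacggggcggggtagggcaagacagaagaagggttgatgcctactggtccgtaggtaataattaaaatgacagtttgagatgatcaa
Msmo1: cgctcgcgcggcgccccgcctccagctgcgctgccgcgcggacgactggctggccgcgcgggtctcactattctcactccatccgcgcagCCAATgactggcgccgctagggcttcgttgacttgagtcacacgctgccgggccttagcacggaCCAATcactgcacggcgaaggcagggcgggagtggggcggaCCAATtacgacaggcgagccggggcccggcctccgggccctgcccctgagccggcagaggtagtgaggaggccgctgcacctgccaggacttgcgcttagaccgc
Hsd17b7: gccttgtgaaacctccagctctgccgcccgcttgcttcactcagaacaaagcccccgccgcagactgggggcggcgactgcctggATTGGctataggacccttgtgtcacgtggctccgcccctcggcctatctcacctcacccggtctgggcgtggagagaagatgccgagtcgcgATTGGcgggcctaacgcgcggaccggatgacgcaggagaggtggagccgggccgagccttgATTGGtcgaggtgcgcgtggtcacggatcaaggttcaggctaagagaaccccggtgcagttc
Abcg8: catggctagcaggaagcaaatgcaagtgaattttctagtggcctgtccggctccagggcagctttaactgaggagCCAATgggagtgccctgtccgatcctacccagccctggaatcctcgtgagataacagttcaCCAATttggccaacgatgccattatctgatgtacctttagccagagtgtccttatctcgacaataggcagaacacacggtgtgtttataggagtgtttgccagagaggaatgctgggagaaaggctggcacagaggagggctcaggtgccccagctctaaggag

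A CCAAT box was present in the windows of 14 of the 15 synthesis genes that had one, Acat2 being the exception, where any window of a gene counts. Counted by single windows, 14 of the 18 windows of these genes held one, beside 37.4% of all windows of this length in the table. The sterol core was present in 1 of these 15, at position -137 of Hmgcs1 relative to the start. By single windows this was 1 of 18, beside 1.24% of all windows. Fdps, Fdft1 and Sqle had no window and were not searched. Among the 7 other genes with a window, 5 held a CCAAT box in at least 1 window and 0 held the core. CCAAT boxes stood in front of genes that rose, such as Msmo1 and Hsd17b7, and of genes that fell, such as Tm7sf2 and Ebp. A match describes letters only and was not read as a site of binding.

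Libraries held between 17815568 and 24814263 counts, and every member had at least 134 counts in every library. Hepatocyte markers were abundant in both groups, with 8 markers summing to 55133 to 91739.6 CPM (counts scaled to a fixed library size) in fibrotic and 77802 to 93299.5 CPM in FLO liver. Most of the sum was Alb, at 40385 to 68432 CPM in fibrotic and 56482 to 70845 CPM in FLO liver. FLO replicate 3 stood apart. It held 3773 counts of Xist, the RNA of the inactive X chromosome, against 0 to 4 in the other 11 libraries, and 4 counts of the Y-linked gene Ddx3y against 556 to 977, a pattern that goes against the label of a male mouse. Fibrotic replicate 4 had the lowest hepatocyte marker sum of the 12 libraries. Both libraries were kept, as labelled. Call counts of the members are also given without FLO replicate 3 and without both libraries, and fold changes without them for some genes only.

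Both libraries bore directly on the synthesis genes. FLO replicate 3 was the highest FLO library for 18 of the 18 synthesis genes, against 19.5% of all tested genes, and stood 1.35 to 3.43 times above the median of the other FLO libraries, with a median of 1.97. Fibrotic replicate 4 was the lowest fibrotic library for 17 of 18, against 29.7% of all tested genes, and the exception was Hsd17b7, for which it was the highest. The highest FLO library and the lowest fibrotic library were thus shared along most of the pathway, while the difference between groups was not. The plot of the synthesis genes by library shows both.

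**Figure D1:**
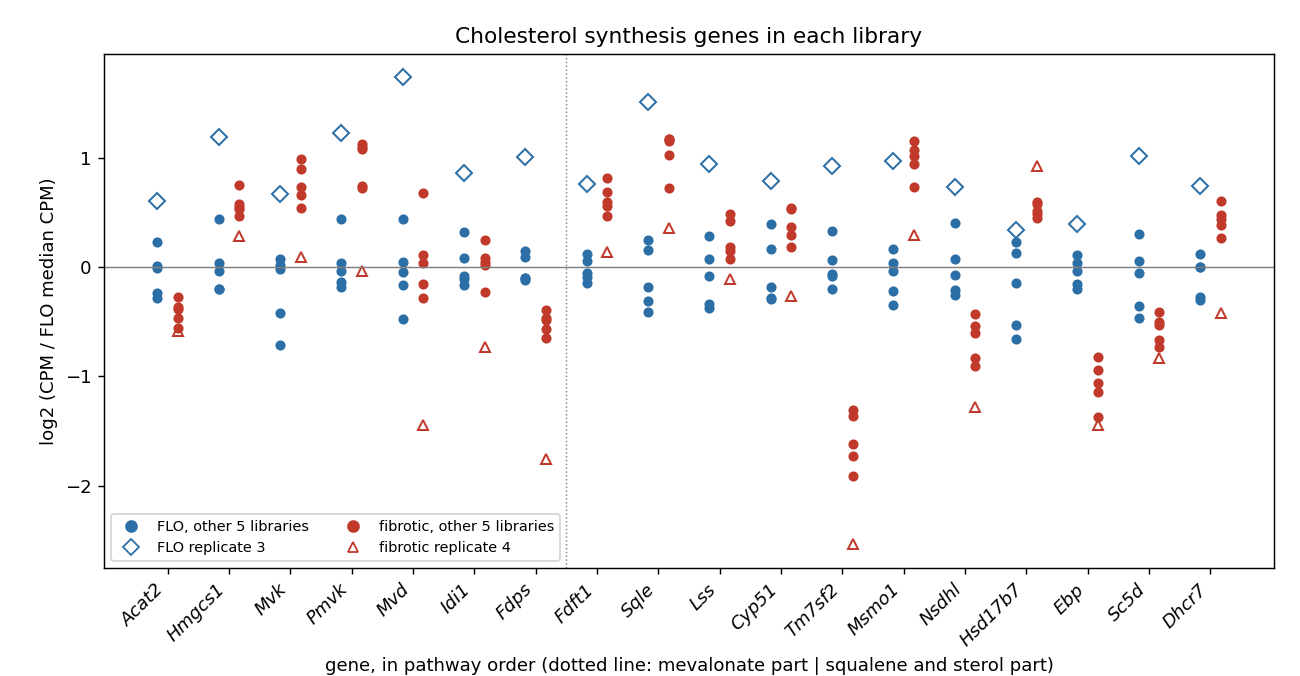
Level of each of the 18 synthesis genes in each library, as log2 of CPM over the FLO median (y axis), with genes in pathway order (x axis), FLO in blue and fibrotic in red. FLO replicate 3 (diamonds) tops the FLO libraries at every gene, fibrotic replicate 4 (triangles) is lowest among the fibrotic libraries at all but Hsd17b7, and all 6 fibrotic points of Tm7sf2, Nsdhl and Ebp lie below all 6 FLO points.

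Genes were called changed at a false discovery rate (FDR) of 0.01 or less and a log2 fold change beyond 0.5 in either direction, the thresholds of the study, with edgeR's quasi-likelihood test over all tested genes and Benjamini-Hochberg adjustment. Of the 28 genes, 11 were called, 4 higher and 7 lower in fibrotic liver. Across all tested genes 29.9% were called, 15.9% higher and 14% lower, beside 39.3% of the members, a difference in share that was not tested. Groups did not overlap for 8 of the 28, against 30.4% of all tested genes. The median log2 fold change was 0.10 over the 18 synthesis genes and 0.07 over the other 10, beside 0.03 over all tested genes. Without FLO replicate 3, 9 members were called higher and 5 lower, against a background of 28.9% called. With FLO replicate 3 and fibrotic replicate 4 both left out, 10 were higher and 4 lower, against 28%. Without FLO replicate 1 alone, or without fibrotic replicate 1 alone, 7 members were called in all. The share of all tested genes was not taken for these fits, so this count has no background beside it.

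The synthesis pathway did not move as 1 block. Of its 18 enzymes, 6 fell (Acat2, Fdps, Tm7sf2, Nsdhl, Ebp and Sc5d), 2 rose (Msmo1 and Hsd17b7) and 10 did not pass. This is 44.4% called, beside 29.9% of all tested genes (15.9% higher and 14% lower), a difference that was not tested. Without FLO replicate 3 the split was 7 higher and 4 lower and the median log2 fold change was 0.30, and without both libraries it was 8 higher and 3 lower with a median of 0.38. Each of these splits came to 61.1% called, beside 28.9% of all tested genes without FLO replicate 3 and 28% without both. Tm7sf2, Nsdhl, Ebp and Hsd17b7 were called in all 21 alternative analyses. With any single library other than FLO replicate 3 or fibrotic replicate 4 left out, Hsd17b7 was the only synthesis gene called higher. Without FLO replicate 1 or fibrotic replicate 1 only 3 were called lower. For these fits the share of all tested genes was not taken, so the counts have no background beside them.

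**Figure D2:**
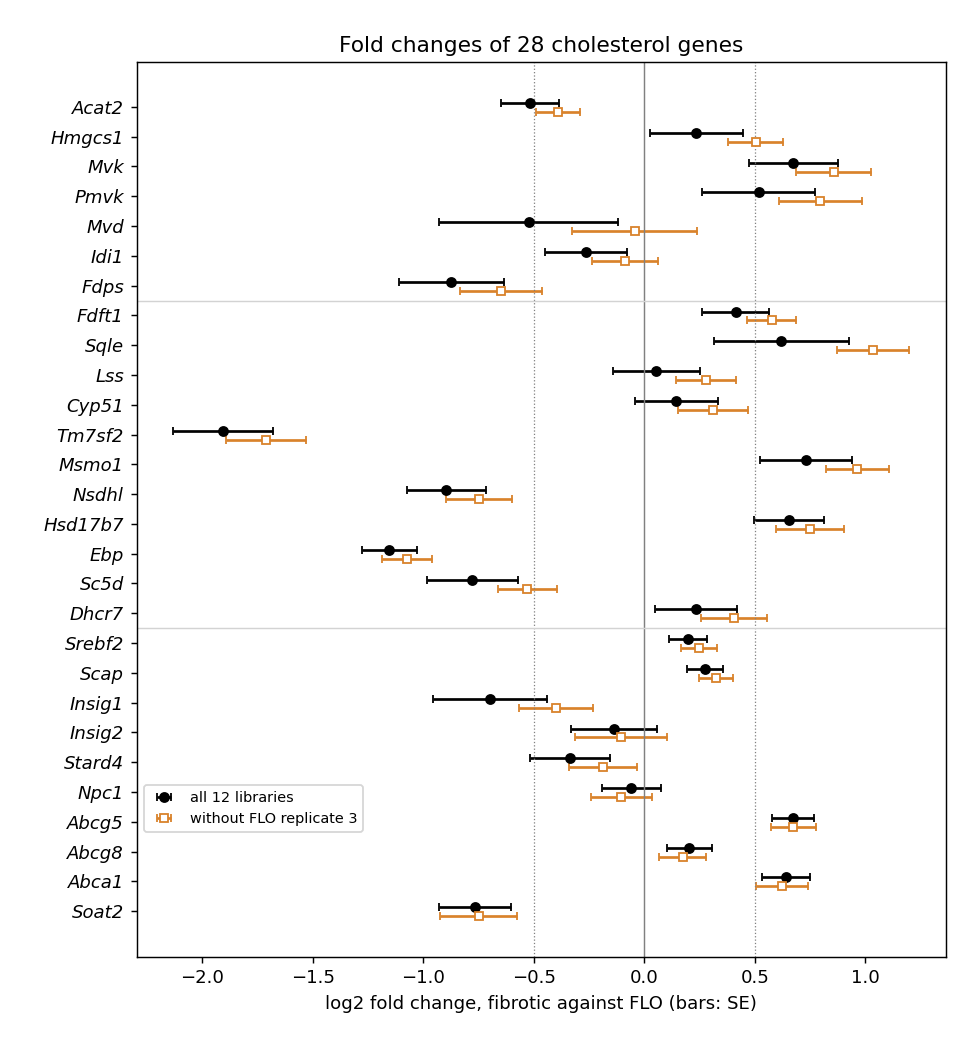
Log2 fold change of fibrotic against FLO (x axis, bars show SE) for the 28 genes, with all 12 libraries (black circles) and without FLO replicate 3 (open squares). Dotted lines mark the fold threshold, and grey lines separate mevalonate steps, sterol steps and the other roles. Leaving out the library moved 18 of 18 synthesis genes to the right, while Abcg5, Abca1 and Soat2 hardly moved.

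The 7 measured enzymes of the mevalonate part held 2 calls, both lower, or 28.6% beside 29.9% of all tested genes. Acat2, the cytosolic thiolase that joins acetyl-CoA units, was at 73.3, 89.4 and 136 CPM in FLO liver (lowest, median and highest) and at 59.5, 66.4 and 74.0 CPM in fibrotic liver. Only the highest fibrotic library reached the lowest FLO library, and the log2 fold change was -0.52 ± 0.13 (SE, n = 6 per group, adjusted p = 0.0037). Without FLO replicate 3 the fold change of -0.39 was below the fold threshold. Acat3, a near copy of Acat2 that lies beside it and could share reads, was not called (0.29, adjusted p = 0.099).

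Fdps, which makes farnesyl diphosphate, the branch point to sterols and to prenylated proteins, stood at 186, 202 and 405 CPM in FLO and 59.9, 140 and 154 CPM in fibrotic liver. The groups did not overlap, but the highest FLO value was replicate 3 and the lowest fibrotic value was replicate 4. The fold change was -0.87 ± 0.24 (adjusted p = 0.0070), and without FLO replicate 3 it was -0.65 with an adjusted p of 0.0102, just outside the threshold. With both libraries left out it was -0.49 (adjusted p = 0.00022), under the fold threshold.

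The other enzymes of this stretch were not called with all libraries. Hmgcs1, which makes HMG-CoA, ranged from 186 to 487 CPM (median 214) in FLO and from 260 to 359 CPM (median 311) in fibrotic liver. All 6 fibrotic libraries lay above the FLO median, and FLO replicate 3 lay above them all. Its fold change was 0.24 ± 0.21 (adjusted p = 0.37), and 0.50 ± 0.12 (adjusted p = 0.0037) without that library. Mevalonate kinase, Mvk, went from 11.9 to 30.9 CPM (median 19.4) in FLO and from 20.7 to 38.5 CPM (median 31.5) in fibrotic liver. The FLO libraries other than replicate 3 all lay below the fibrotic ones, and the fold change of 0.67 ± 0.20 (adjusted p = 0.012) became 0.86 ± 0.17 (adjusted p = 0.00078) without it.

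Pmvk, the next kinase, ranged from 24.2 to 64.4 CPM (median 27.6) in FLO and from 26.9 to 60.1 CPM (median 52.1) in fibrotic liver, with a fold change of 0.52 ± 0.26 (adjusted p = 0.11). Both ends came from the libraries that stood apart, since replicate 3 was the highest in FLO and replicate 4 the lowest in fibrotic liver, and without FLO replicate 3 the fold change was 0.80 ± 0.19 (adjusted p = 0.0031). Mvd, the decarboxylase that forms isopentenyl diphosphate, had the widest FLO spread of the pathway relative to its level, from 12.3 to 56.9 CPM with a median of 17.1, against 6.27 to 27.4 CPM (median 16.5) in fibrotic liver. The group medians were close, and the fold change was -0.52 ± 0.40 (adjusted p = 0.30), -0.04 without FLO replicate 3 and 0.13 without both libraries. Idi1, the isopentenyl diphosphate isomerase, had medians of 62.3 CPM in FLO and 63.5 CPM in fibrotic liver (-0.26 ± 0.19, adjusted p = 0.26), with a fold change of -0.09 without FLO replicate 3.

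From squalene onwards 4 enzymes fell and 2 rose, or 54.5% of 11 beside 29.9% of all tested genes. The first 4 of these steps did not pass the test. Fdft1, squalene synthase, ranged from 93.7 to 176 CPM (median 104) in FLO and from 114 to 183 CPM (median 155) in fibrotic liver, and the fold change was 0.41 ± 0.15 (adjusted p = 0.031). Fdft1 shares 18.3% of its exon bases with Ctsb on the opposite strand, a gene at a mean of 985 CPM, and whether counting used strand is not given in the sources used here. Sqle, squalene epoxidase, ranged from 26.7 to 101 CPM (median 35.5) in FLO and from 45.4 to 79.8 CPM (median 75.5) in fibrotic liver. Without FLO replicate 3 the highest FLO value was 42.0 CPM, below every fibrotic library, and the fold change rose from 0.62 ± 0.30 (adjusted p = 0.11) to 1.03 ± 0.16 (adjusted p = 0.00013). Fdft1 also passed without that library (0.58, adjusted p = 0.00057).

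Lss, which closes oxidosqualene into lanosterol, had medians of 39.3 CPM in FLO and 44.1 CPM in fibrotic liver, and the fold change was 0.05 ± 0.20 (adjusted p = 0.83). Cyp51, the lanosterol 14-alpha demethylase, had medians of 90.9 and 114 CPM with a fold change of 0.15 ± 0.19 (adjusted p = 0.54). Both stayed below the threshold without FLO replicate 3, at 0.28 and 0.31 respectively.

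Tm7sf2, a sterol 14-reductase that acts next, showed the largest fold change of the 28 genes. FLO libraries held 101, 117 and 221 CPM (lowest, median and highest) and fibrotic libraries 20.1, 36.6 and 47.1 CPM. No fibrotic library came near the FLO range, and the log2 fold change was -1.91 ± 0.23 (adjusted p = 1.1e-05), or 0.267 of the FLO level. Without FLO replicate 3 it was -1.71 (adjusted p = 5.2e-06). Tm7sf2 shares 12.1% of its exon bases with Vps51 on the same strand, whose mean was 28.2 CPM. Lbr, the lamin B receptor, which has the same reductase activity was not called at -0.39 (adjusted p = 0.011).

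The C4 methyl groups of the sterol are removed by MSMO1, NSDHL and HSD17B7, which act together on the endoplasmic reticulum, and their mRNAs moved apart. Msmo1, the oxidase that starts the step, was at 82.2, 105 and 206 CPM in FLO and at 129, 207 and 233 CPM in fibrotic liver. All 6 fibrotic libraries exceeded the FLO median, but FLO replicate 3 lay within the fibrotic range. The fold change was 0.73 ± 0.21 (adjusted p = 0.0088), a call that held in 9 of 21 alternatives with adjusted p between 2.4e-06 and 0.029, and 0.96 (adjusted p = 7.9e-05) without that library.

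Nsdhl, the decarboxylating dehydrogenase, was at 37.3, 44.7 and 74.0 CPM in FLO and 18.4, 27.3 and 33.1 CPM in fibrotic liver. Every fibrotic library was below every FLO library, and the fold change was -0.90 ± 0.18 (adjusted p = 0.00073). Hsd17b7, the ketoreductase that closes the step, was at 30.3, 47.7 and 60.5 CPM in FLO and 65.2, 69.6 and 90.6 CPM in fibrotic liver. Here every fibrotic library was above every FLO library, with replicate 4 at the top, and the fold change was 0.66 ± 0.16 (adjusted p = 0.0029). Erg28, which holds this complex together, fell like Nsdhl (-0.78, adjusted p = 0.00012).

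Within a library the ratio of Msmo1 to Nsdhl in CPM, which is not corrected for gene length, lay between 1.99 and 2.78 in FLO liver and between 6.09 and 8.90 in fibrotic liver. FLO replicate 3 was at 2.78 and fibrotic replicate 4 at 6.99, so both libraries stayed with their groups in this ratio. Ratios of Hsd17b7 to Nsdhl were 0.714 to 1.16 in FLO and 2.17 to 4.93 in fibrotic liver, and those of Msmo1 to Tm7sf2 were 0.736 to 0.930 and 4.28 to 7.49. These pairs were picked after their fold changes were known, so the ratios are a description and carry no test.

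**Figure D3:**
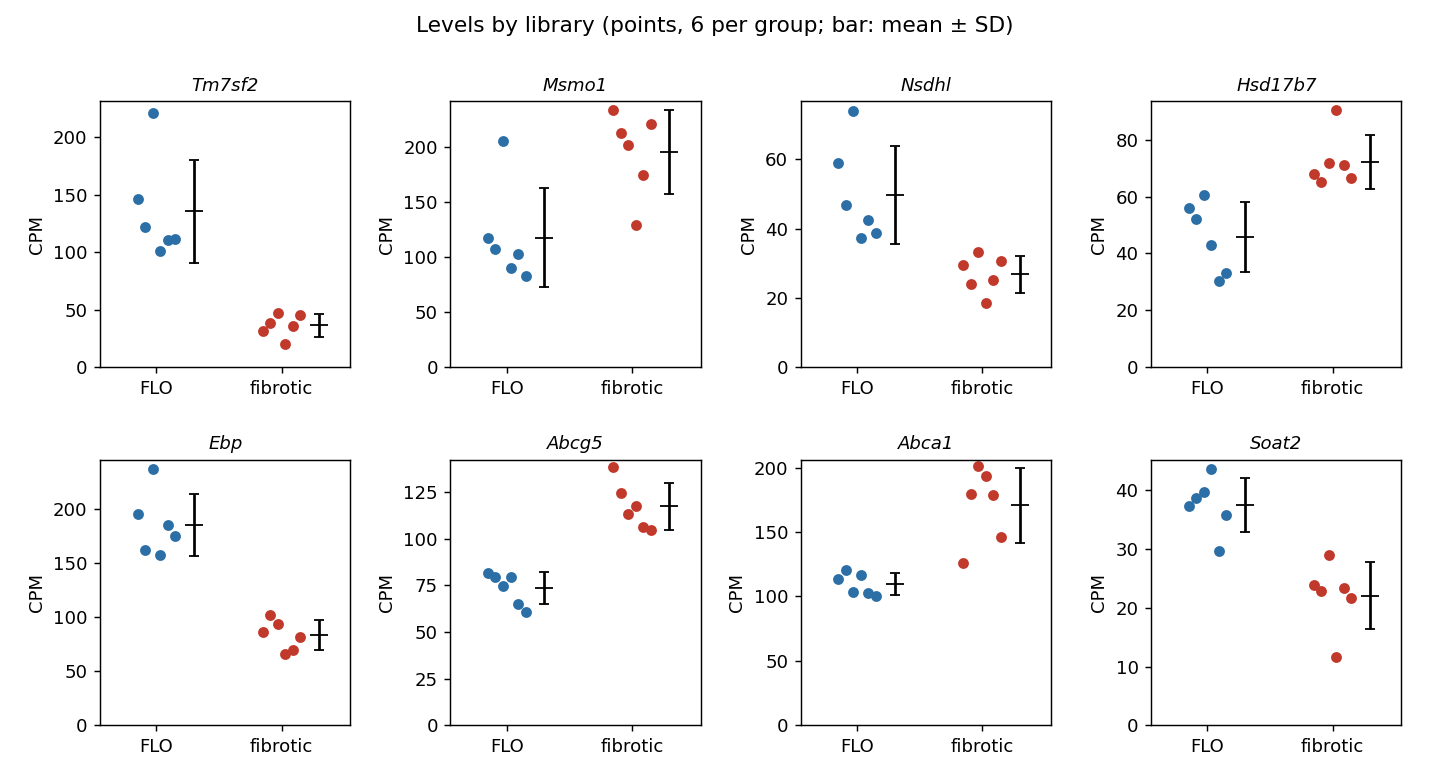
CPM by library (y axes, points) for 5 sterol synthesis genes and for Abcg5, Abca1 and Soat2, in FLO (blue) and fibrotic (red) liver, with mean ± SD beside the points. Tm7sf2, Nsdhl, Ebp and Soat2 lie lower and Hsd17b7, Abcg5 and Abca1 higher in all 6 fibrotic libraries than in any FLO library, and Msmo1 overlaps through FLO replicate 3.

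Ebp, the isomerase that shifts the ring double bond, had the smallest adjusted p of the 28 genes. FLO libraries held 157, 180 and 236 CPM and fibrotic libraries 66.1, 83.8 and 102 CPM. The groups were well apart, and the fold change was -1.15 ± 0.12 (adjusted p = 2.2e-06), with adjusted p no higher than 1.4e-05 in any alternative. Ebp and Nsdhl are X-linked, and both were called without FLO replicate 3, at -1.07 and -0.75.

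Sc5d, the desaturase that follows, was at 234, 322 and 654 CPM in FLO and 182, 213 and 243 CPM in fibrotic liver. The groups touched only at the highest fibrotic and lowest FLO libraries, and the fold change was -0.78 ± 0.21 (adjusted p = 0.0060). It was still called without FLO replicate 3 (-0.53, adjusted p = 0.0043), but at -0.48 missed the fold threshold with both libraries left out. Dhcr7, which reduces 7-dehydrocholesterol to cholesterol, had medians of 87.9 CPM in FLO and 117 CPM in fibrotic liver, and was not called at 0.23 ± 0.19 (adjusted p = 0.31). Its fold change was 0.41 (adjusted p = 0.037) without FLO replicate 3, and with both libraries left out it was called at 0.53 (adjusted p = 0.00042).

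None of the 4 regulators was called by edgeR, although 3 had an unadjusted p under 0.05, and DESeq2 called Insig1. Srebf2, which encodes SREBP2, had medians of 57.2 CPM in FLO and 68.8 CPM in fibrotic liver (0.20 ± 0.09, adjusted p = 0.063), and Scap, its escort, 143 and 175 CPM (0.27 ± 0.08, adjusted p = 0.0102). All 6 fibrotic libraries lay above the FLO median for both genes, and both differences were small. Insig1, itself a target of SREBP2, ranged from 135 to 399 CPM (median 176) in FLO and from 93.1 to 179 CPM (median 125) in fibrotic liver, with a fold change of -0.70 ± 0.26 (adjusted p = 0.035). FLO replicate 3 was again the highest, at 2.58 times the median of the other FLO libraries, and without it the fold change was -0.40 (adjusted p = 0.062).

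Insig2, which in liver has a transcript not driven by SREBP, spanned 204 to 246 CPM in FLO but 102 to 327 CPM in fibrotic liver. The fibrotic libraries surrounded the FLO range, and the fold change was -0.14 ± 0.19 (adjusted p = 0.58). The log2 ratio of Insig2 to Insig1 was 0.617 ± 0.521 (SD, n = 6) in fibrotic and 0.216 ± 0.523 in FLO liver, a difference of 0.40 that did not pass (exact permutation of the group labels in 924 ways, two-sided p = 0.212).

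The 2 genes of uptake and transport inside the cell were not called by edgeR, DESeq2 or limma-voom, and neither had an unadjusted p under 0.05. Stard4, a carrier of cholesterol between membranes, had medians of 55.1 CPM in FLO and 45.8 CPM in fibrotic liver (-0.34 ± 0.18, adjusted p = 0.13, and -0.19 without FLO replicate 3). Npc1, which lets cholesterol out of lysosomes, had medians of 97.9 and 91.7 CPM (-0.06 ± 0.13, adjusted p = 0.73). For Npc1, unlike the synthesis genes, FLO replicate 3 lay below the median of the other FLO libraries, at 0.786 of it.

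Of the 3 export genes 2 were higher and 0 lower, beside 15.9% and 14% of all tested genes, and 3 genes are too few to compare shares. Abcg5, which with ABCG8 forms the transporter that moves sterols into bile, was at 61.0, 77.3 and 81.9 CPM in FLO and at 105, 115 and 138 CPM in fibrotic liver. Every fibrotic library was above every FLO library, and the fold change was 0.67 ± 0.10 (adjusted p = 3.1e-05). Abcg8, its partner, was at 65.4, 82.4 and 93.2 CPM in FLO and 84.1, 92.6 and 105 CPM in fibrotic liver. The groups overlapped, although all 6 fibrotic libraries exceeded the FLO median, and the fold change of 0.20 ± 0.10 (adjusted p = 0.11) was not called.

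The window printed for Abcg8 holds a start of each of these 2 genes, 110 bases apart. A further annotated start of Abcg8, at chr17:84676302, lies outside it. The protein products of Abcg5 and Abcg8 work as a pair. Their log2 ratio, Abcg5 to Abcg8, was 0.325 ± 0.184 (SD, n = 6) in fibrotic and -0.135 ± 0.0935 in FLO liver. The groups did not overlap, and all 6 fibrotic values exceeded every FLO value. The difference was 0.46 (exact permutation test, two-sided p = 0.00216, the smallest that 924 arrangements allow, adjusted over 3 ratios 0.00649). Their exons share 82 bases on opposite strands.

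Abca1, which loads cholesterol onto apolipoprotein A-I, was at 100, 108 and 121 CPM in FLO and 126, 179 and 201 CPM in fibrotic liver. No fibrotic library fell within the FLO range, and the fold change was 0.64 ± 0.11 (adjusted p = 0.00017). Abca1 is also expressed in macrophages, and Kupffer cell markers moved with the group: 5 of 6 were higher, their summed level was 213 to 417 CPM in fibrotic and 164 to 202 CPM in FLO liver, and 2 of 6 general macrophage markers were higher, with sums of 80.5 to 190 and 64.7 to 102 CPM. Hepatocyte markers were higher for 1 of 8 (Cps1, 0.73, adjusted p = 0.0065) and lower for 1 of 8. The lower one was Apoa1, the gene of apolipoprotein A-I (-1.68, adjusted p = 7.9e-07). Cholangiocyte markers were higher for 4 of 6 (81.5 to 277 against 47.3 to 88.7 CPM). Endothelial markers were lower for 1 of 6 (119 to 157 against 171 to 193 CPM), with all 6 fold changes negative. Stellate cell markers were higher for 1 of 6 (193 to 320 against 174 to 264 CPM), with 3 fold changes positive and 3 negative. Among these, Col1a1 was at 11.3 to 46.8 CPM in fibrotic and 12.7 to 42.2 CPM in FLO liver (-0.22 ± 0.33, adjusted p = 0.61). Beside these marker counts, 15.9% of all tested genes were called higher and 14% lower. The part of these cells in any result was not tested.

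Soat2, which esterifies cholesterol in hepatocytes, fell. It was at 29.7, 38.0 and 43.6 CPM in FLO and at 11.7, 23.1 and 29.0 CPM in fibrotic liver. The highest fibrotic library was just below the lowest FLO library, and the fold change was -0.77 ± 0.16 (adjusted p = 0.0012). Soat1, the enzyme of most other cells, was at 2.18 to 4.26 CPM in FLO and 3.21 to 6.13 CPM in fibrotic liver, and was not called (0.50 ± 0.20, adjusted p = 0.046). The log2 ratio of Soat2 to Soat1 was 2.27 ± 0.731 in fibrotic and 3.54 ± 0.444 in FLO liver (SD, n = 6), lower by 1.27 (exact permutation test, two-sided p = 0.00866, adjusted over 3 ratios 0.013). All 6 fibrotic values were below the median of the FLO values, and the groups overlapped.

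**Figure D4:**
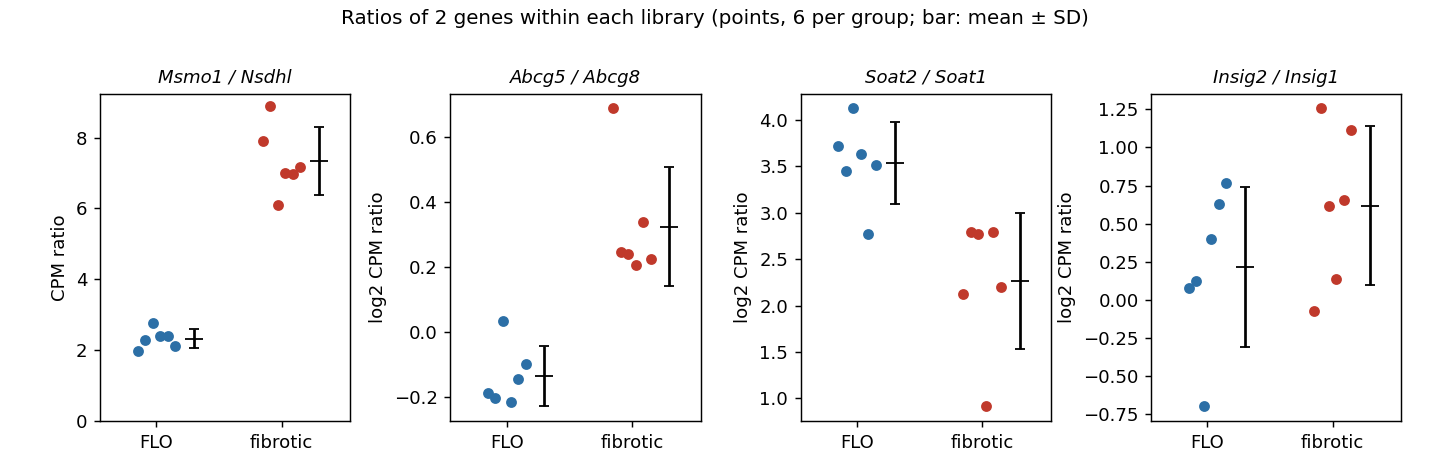
Ratio of each pair of genes within each library (y axes, CPM ratio for the first panel and log2 CPM ratio for the others), in FLO (blue) and fibrotic (red) liver, with mean ± SD. Msmo1 to Nsdhl and Abcg5 to Abcg8 separate the groups fully, Soat2 to Soat1 overlaps at its margin with fibrotic replicate 4 far below the rest, and Insig2 to Insig1 overlaps widely.

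Beyond the 28 genes, 51 others of the same processes were examined in 7 lists, of which 48 were tested, with 7 higher and 8 lower. This is 31.2% called, close to the background of 29.9%, so the counts below describe these genes and set none of the lists apart. Of 10 genes of SREBP processing and sterol-regulated degradation, 3 fell and 1 rose. Srebf1, the SREBP of fatty acid synthesis, was at 191 to 367 CPM in FLO and 38.7 to 72.0 CPM in fibrotic liver, a fold change of -2.17 ± 0.18 (adjusted p = 2.2e-07), while Srebf2 was not called. Erlin1, which binds INSIG1 and restrains SREBP, fell by 1.46 on the log2 scale (adjusted p = 3.8e-06), and Paqr3, which anchors the SCAP complex to the Golgi, fell by 1.38 (adjusted p = 0.00032). The gene that rose was Mbtps2, the second of the proteases that release SREBP (0.59, adjusted p = 0.0010).

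Among 16 further genes of uptake and intracellular transport, 4 rose and 1 fell, again 31.2% beside 29.9% of all tested genes. Gramd1b, which carries cholesterol from the plasma membrane to the endoplasmic reticulum, rose from 2.57 to 5.03 CPM in FLO to 7.59 to 37.3 CPM in fibrotic liver (2.18 ± 0.34, adjusted p = 0.00014). Stard5, a sterol carrier gene, rose by 0.65 (adjusted p = 4.0e-05). Osbpl2, higher at 0.53, and Osbpl1a, lower at -0.53, both of the oxysterol-binding protein family, were also called.

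Of 6 genes of export and oxysterol receptors 5 were tested, and 2 fell. Both that fell act on circulating lipoproteins. Lcat, which esterifies cholesterol in plasma lipoproteins, was at 454 to 499 CPM in FLO and 142 to 179 CPM in fibrotic liver (-1.55 ± 0.08, adjusted p = 1.7e-09). Pltp, the phospholipid transfer protein, was at 119 to 207 CPM in FLO and 28.9 to 47.4 CPM in fibrotic liver (-1.89 ± 0.14, adjusted p = 6.6e-08). The sixth gene, Npc1l1, which takes up sterol from bile and gut, had too few counts for the test, with 0 to 0.273 CPM in FLO and 0.328 to 1.26 CPM in fibrotic liver. No fibrotic library fell within the FLO range, but a library held only 0 to 25 counts of it. Npc1l1 could pass the filter only through the fibrotic libraries, so its difference was not read as a result.

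Nceh1, a cholesteryl ester hydrolase, rose by 0.52 (adjusted p = 0.00043), and Cel, the bile salt-dependent lipase, was listed at 0 in all libraries. Of 6 genes of oxysterol and bile acid steps, 5 were tested. Cyp39a1, an oxysterol hydroxylase, rose by 1.17 (adjusted p = 1.9e-05), and Cyp27a1, the mitochondrial sterol 27-hydroxylase, was lower at -0.56 (adjusted p = 0.0020). The 8 genes of the mevalonate side branches held 0 calls by edgeR, DESeq2 or limma-voom at this threshold, and 2 of them, Pdss2 and Pggt1b, had an unadjusted p under 0.05.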

How the data were processed

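Poly(A) RNA-seq libraries of whole liver were processed by the authors, who deposited raw counts per gene. The submitters' processing notes name bcl2fastq, STAR 2.7.3a and mm10, and the counting tool's strand setting is not given in the sources used here. The counts were analysed as deposited. Genes were filtered with filterByExpr, scaled by TMM and tested with edgeR 4.0.16 (glmQLFit and glmQLFTest, robust) in R 4.3.3, fibrotic against FLO, with no covariate. CPM values use TMM library sizes. Genes were called at an FDR of 0.01 and a log2 fold change beyond 0.5. The same steps were tested on simulated data. Ratios of 2 genes were compared by an exact permutation test. Libraries held 17815568 to 24814263 counts, and p-values measure the spread between mice. Replicate numbers were not treated as pairs in the main fit. Correlations of same-numbered libraries ran from -0.162 to 0.104, which does not settle whether mice were paired.

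The 28 genes, the 7 lists of other genes and the 6 marker lists were chosen with earlier results of these data known. All 28 members are named, and of each other list up to 3 called genes with the largest fold change, with every gene of lists of 3 or fewer, Soat1 and Srebf1. Mbtps2, Osbpl1a, Osbpl2, Npc1l1, Pdss2, Pggt1b and Acat3 were added after their values were seen. The values of 1 gene that the rule would name are not reported here. Alternatives were RLE, upper-quartile scaling and TMM without the 50 most counted genes, no filter or at least 10 counts in every library, DESeq2 1.42.0, limma-voom (limma 3.58.1), a replicate block, a prior count of 0.5 against 2 for the ratios, an FDR of 0.05 with no fold minimum, and leaving out each library. Leaving out FLO replicate 3 together with fibrotic replicate 4 was added after the data were seen. Promoter windows came from RefSeq (GRCm38.p6) and exon overlaps from GENCODE M21 (GRCm38).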

Additional observations from a re-analysis of the deposited data

Results flagged for a closer look

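Of 62 groups of 6 libraries examined for a single library far from the others (28 genes and 3 ratios in each group), 10 stood out, where chance gives about 1 in 20, or 3.1. The measure is the gap from the highest or lowest library to its neighbour as a share of the group's range, with a limit of 0.625. FLO replicate 3 was far above the other FLO libraries for Fdps (0.761), Fdft1 (0.704) and Sqle (0.658). Fibrotic replicate 4 was far below the other fibrotic libraries for Pmvk (0.657), Fdps (0.807), Dhcr7 (0.674), Soat2 (0.683) and the Soat2 to Soat1 ratio (0.642), and far above them for Hsd17b7 (0.704). Fibrotic replicate 1 was far above the others for the Abcg5 to Abcg8 ratio (0.726). Fibrotic replicate 4 also had the highest Kupffer cell marker sum of the 12 libraries and the lowest total count, and FLO replicate 3 the highest total count. The part of these features in the synthesis genes was not tested.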

How the results depend on the processing

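Over the 28 genes and 21 alternatives, 529 of the comparisons kept direction and call, 36 lost the call, 15 gained it and 8 changed sign, and 12 genes had no change in any alternative. With FLO library 3 and fibrotic library 4 both left out, 10 members were higher and 4 lower, and 8 synthesis genes were higher and 3 lower. An FDR of 0.05 with no fold minimum gave 7 members and 4 synthesis genes higher and called 23 of the other pathway genes. Among the alternatives, the share of all tested genes was taken only without FLO replicate 3 and without both libraries. The other counts in this section therefore have no background beside them. RLE scaling and no low-count filter each left 1 synthesis gene higher. Leaving out 1 library at a time gave 7 to 14 member calls (3 to 9 higher, 4 to 7 lower), 1 to 7 synthesis genes higher and 3 to 6 lower, and 14 to 17 other pathway genes, and the synthesis median ran from 0.019 to 0.30. The highest count of higher calls came without FLO replicate 3 and the lowest count of lower calls without FLO replicate 1 or fibrotic replicate 1. Signs changed for uncalled genes only. With both libraries left out, Mvd was at 0.135, Idi1 at 0.0254 and Insig2 at 0.0368. With single libraries left out, Lss ran from -0.0338 to 0.279 (below 0 without FLO replicate 5, FLO replicate 6 or fibrotic replicate 1), Insig2 from -0.329 to 0.00668 (above 0 without fibrotic replicate 4) and Npc1 from -0.142 to 0.00897 (above 0 without FLO replicate 1). With the replicate block, 10 members were called, 4 higher and 6 lower, and the Soat2 to Soat1 ratio, at -1.27, no longer passed (exact sign-flip test, p = 0.0625). The causes were not tested.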
